A study of Homo sapiens with 9 samples.

Results

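A set of 10 genes of the YAP/TEAD arm of the Hippo pathway was followed through RNA sequencing of KDM4C-silenced cells, and its members were taken by gene symbol. They are YAP1, WWTR1, TEAD1, CTGF, CYR61, ANKRD1, AMOTL2, AJUBA, LATS2 and AXL, and all 10 were found among the 32906 genes of the deposited lists. The cells carry the label Huh7, an established human hepatocellular carcinoma line. They received a Scramble siRNA or one of a pair of siRNAs against the histone demethylase KDM4C, named Si-KDM4C#1 and Si-KDM4C#2, and RNA was collected 48 hours later. Each of the 3 groups had 3 libraries, and all were grown in the same serum-containing medium. The labels do not say whether the libraries of a group came from separate cultures, so the p-values below measure the spread between these libraries, which may be technical.

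In GRCh38 with the GENCODE 29 annotation, the coactivator genes are YAP1 at chr11:102110461-102233423 and WWTR1 at chr3:149517235-149736714, and TEAD1 lies at chr11:12674591-12944483. The targets CTGF, CYR61 and ANKRD1 lie at chr6:131948176-131951373, chr1:85580761-85583962 and chr10:90912096-90921276. AMOTL2 lies at chr3:134355874-134375479, AJUBA at chr14:22971174-22982642, LATS2 at chr13:20973032-21061547 and AXL at chr19:41219203-41261766. All 10 are annotated as protein-coding.

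In the Hippo pathway, a kinase cassette phosphorylates the coactivators YAP1 and TAZ, and this holds them in the cytoplasm or marks them for degradation. Unphosphorylated YAP1 and TAZ enter the nucleus, where they bind TEAD transcription factors, since neither coactivator binds DNA by itself. CTGF, CYR61 and ANKRD1 are the target genes most often used as a readout of this complex. Several targets, such as AMOTL2, AJUBA and LATS2, encode proteins that act back on the pathway. In the liver the pathway is known for its control of organ size, and YAP1 is often active in hepatocellular carcinoma. Most of this regulation acts on proteins, which were not measured here.

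Expression was deposited as FPKM, fragments per kilobase of transcript scaled to the mapped fragments of a library. The depth recovered from the values was 14597504 to 18058556 fragments per library. The silenced gene was lower with both siRNAs, from 4.57 to 4.88 FPKM of KDM4C after Scramble to 1.10 to 1.18 after Si-KDM4C#1 and 0.256 to 0.349 after Si-KDM4C#2. The 10 hepatocyte markers analysed, which include AFP, APOA1, SERPINA1 and HNF4A, reached at most 0.128 FPKM in any library. ALB, APOB and TTR were also chosen as hepatocyte markers but are not among the listed genes, so they have no values. The liver markers analysed were thus absent or nearly so in libraries labelled Huh7. This goes against the hepatocellular identity of that label, and the cells are called here by their label. The 3 endothelial and 5 leukocyte markers analysed were also under 1 FPKM throughout. Of 7 fibroblast markers, DCN, PDGFRA and COL1A2 stayed under 1 FPKM, while COL3A1 was at 26.2 to 56.3 FPKM, COL1A1 at 14.3 to 17.9, LUM at 2.89 to 7.51 and PDGFRB at 0.244 to 2.01 over the 9 libraries. The summed fibroblast markers were 49.4 to 52.9 FPKM after Scramble, 56.0 to 59.1 after Si-KDM4C#1 and 79.6 to 80.7 after Si-KDM4C#2. These markers did not move together. Mean COL3A1 was 27.5, 38.5 and 55.5 FPKM in the same order, and COL1A1 14.8, 15.4 and 17.5. LUM (6.97, 3.58 and 6.15 FPKM) and PDGFRB (1.95, 0.308 and 1.03 FPKM) were instead highest after Scramble. The part of these markers in the results below was not tested. Differences are log2 fold changes of log2(FPKM + 1) from 1 limma fit over the 14363 genes whose mean reached 1 FPKM in any group. This scale understates the change of low genes. A gene is said to rise or fall at an adjusted p under 0.05, and to be called where it also passed a 2-fold change.

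The 10 genes did not respond as a block, and the response depended on which siRNA was used. With Si-KDM4C#1, CTGF, CYR61, AMOTL2 and AJUBA rose while WWTR1 and AXL fell. With Si-KDM4C#2, YAP1, WWTR1, TEAD1 and AMOTL2 fell while LATS2 rose, and CTGF and CYR61 rose by far less. The changes of TEAD1, CTGF and CYR61 with Si-KDM4C#2 lost the test in several of the alternative fits given below. CTGF, CYR61, AMOTL2 and AJUBA were each called lower after Si-KDM4C#2 than after Si-KDM4C#1. The comparisons of either siRNA with control share the same 3 Scramble libraries. In bulk RNA, fewer cells that express a gene and less RNA per cell cannot be told apart.

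**Figure D1:**
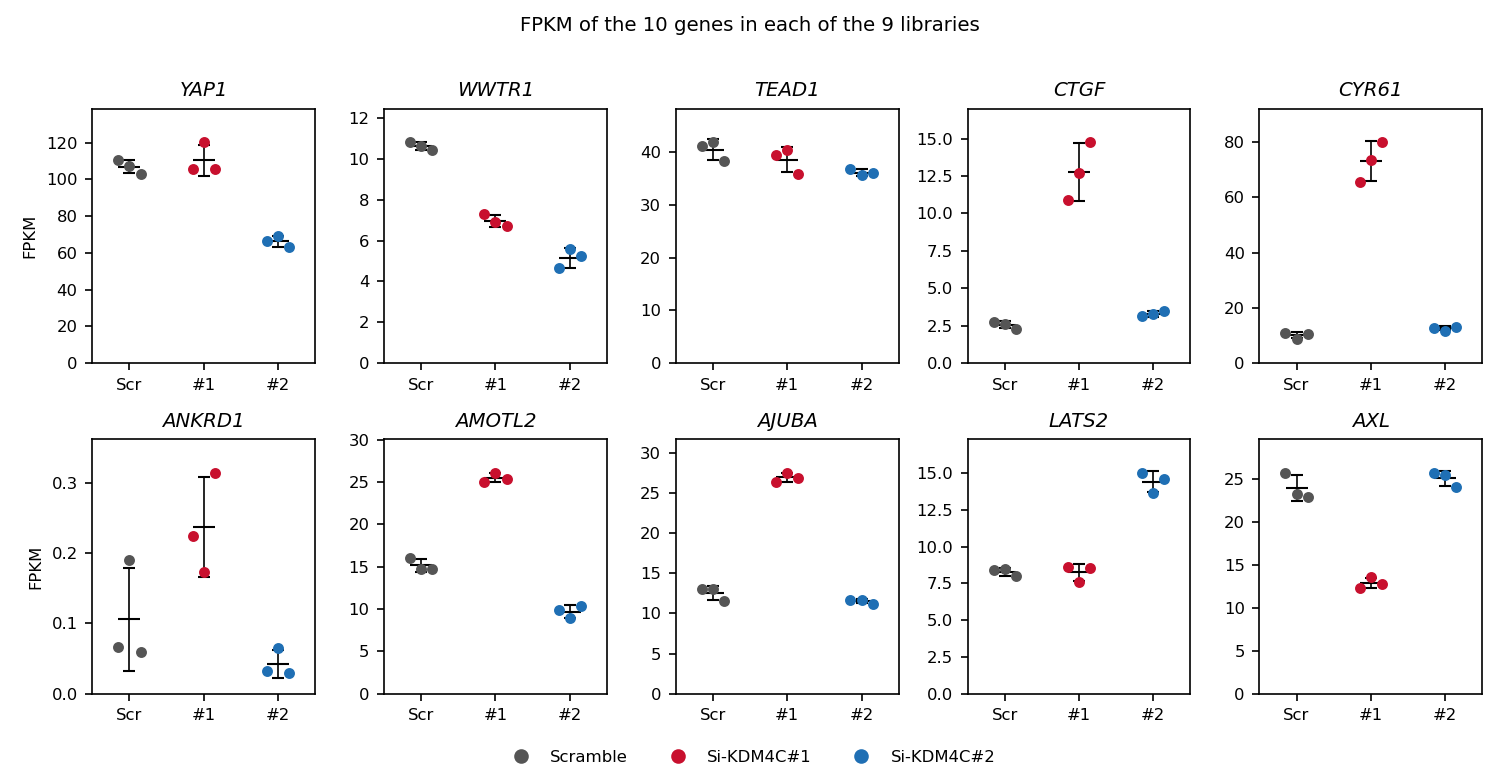
FPKM (vertical axis, starting at 0, a scale per gene) of each of the 10 genes after Scramble (Scr), Si-KDM4C#1 and Si-KDM4C#2. Points are the 3 libraries of a group, with the mean (horizontal mark) and 1 SD (bars), and the Si-KDM4C#1 libraries stand above the others for CTGF, CYR61, AMOTL2 and AJUBA and below them for AXL, and the Si-KDM4C#2 libraries stand apart for YAP1 and LATS2.

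**Figure D2:**
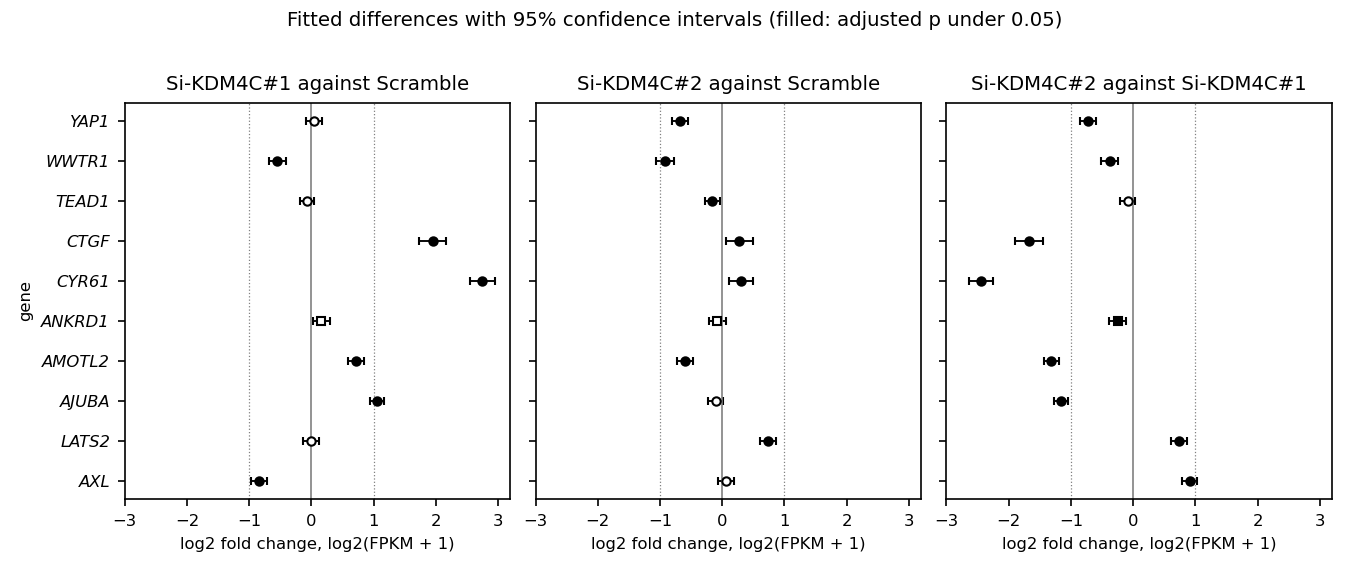
Fitted log2 fold changes of log2(FPKM + 1) with 95% confidence intervals for the 10 genes in the 3 comparisons. Filled symbols have an adjusted p under 0.05, dotted lines mark a 2-fold change, and the square is ANKRD1, from a fit over all listed genes; CYR61 reached 2.75 after Si-KDM4C#1 and 0.30 after Si-KDM4C#2.

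The coactivators were considered first. YAP1, which encodes the main coactivator in many epithelial cells, was measured at 110.3, 107.1 and 103.1 FPKM after Scramble. It was at 105.6, 120.3 and 105.5 FPKM after Si-KDM4C#1, which overlapped the Scramble libraries. It was at 66.4, 69.4 and 63.1 FPKM after Si-KDM4C#2, below every other library. YAP1 fell by 0.68 on the log2 scale after Si-KDM4C#2 (SE 0.0577, adjusted p = 7.55e-06), and its mean FPKM decreased by 37.9%. With Si-KDM4C#1 its log2 fold change was 0.045, with a 95% interval of -0.085 to 0.18 (adjusted p = 0.511), and it was -0.14 after quantile normalization (adjusted p = 0.0595). It passed the test after adjustment for GC content (0.19, adjusted p = 0.0132) and in a voom fit to recovered fragments (0.11, adjusted p = 0.0409).

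WWTR1 encodes TAZ, the paralog of YAP1. Its levels were 10.8, 10.6 and 10.4 FPKM after Scramble, 7.29, 6.92 and 6.69 after Si-KDM4C#1 and 4.64, 5.59 and 5.24 after Si-KDM4C#2. The 3 groups did not overlap. WWTR1 fell by 0.54 on the log2 scale after Si-KDM4C#1 (SE 0.0615, adjusted p = 3.46e-05) and by 0.92 after Si-KDM4C#2 (adjusted p = 1.75e-06). Neither difference passed the 2-fold limit, but the second did with a pseudocount of 0.1 (-1.03), after quantile normalization (-1.01) and in the voom fit (-1.11). After GC adjustment the first was -0.33. In the limma fit it was the only one of the 10 genes that fell with both siRNAs, and TEAD1 did so too after quantile normalization. Since YAP1 held 91.0% ± 0.129 (SD, n = 3) of the summed YAP1 and WWTR1 FPKM after Scramble, the sum moved with YAP1. The sum was 117.5 ± 3.82 FPKM after Scramble, 117.4 ± 8.46 after Si-KDM4C#1 and 71.5 ± 3.31 after Si-KDM4C#2.

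TEAD1, a DNA-binding partner of both coactivators, differed little from Scramble with either siRNA. It was at 41.3, 41.9 and 38.3 FPKM after Scramble, 39.4, 40.4 and 35.9 after Si-KDM4C#1 and 36.8, 35.6 and 36.1 after Si-KDM4C#2. The Si-KDM4C#2 libraries were all below the Scramble libraries, and the Si-KDM4C#1 libraries overlapped both. TEAD1 fell by 0.16 after Si-KDM4C#2 (SE 0.0512, adjusted p = 0.0234). That adjusted p became 0.0633 without Scramble replicate 1, 0.0815 without Scramble replicate 2, 0.0670 without Si-KDM4C#2 replicate 2 and 0.0584 without Si-KDM4C#2 replicate 3. It was 0.146 after GC adjustment, where the log2 fold change was -0.084, and 0.0507 with no filter on low genes. After quantile normalization the log2 fold change was -0.27 instead. With Si-KDM4C#1 the log2 fold change of TEAD1 was -0.069 (interval -0.18 to 0.047, adjusted p = 0.262), and it passed the test in opposite directions after GC adjustment (0.13, adjusted p = 0.0304) and after quantile normalization (-0.24, adjusted p = 0.00173). Between the siRNAs its difference of -0.090 (adjusted p = 0.155) had an adjusted p of 0.0305 without Si-KDM4C#1 replicate 3, and it passed after GC adjustment (-0.22, adjusted p = 0.00256) and in the voom fit (-0.22, adjusted p = 0.000112).

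TEAD4, a paralog with the same DNA-binding fold, moved far more than TEAD1. TEAD4 was at 12.9, 12.2 and 12.6 FPKM after Scramble, 40.1, 39.3 and 42.3 after Si-KDM4C#1 and 7.98, 8.99 and 8.44 after Si-KDM4C#2. The 3 groups stood apart. TEAD4 was called higher after Si-KDM4C#1 (log2 fold change 1.61, SE 0.0499, adjusted p = 1.38e-08) and fell by 0.52 after Si-KDM4C#2 (adjusted p = 1.70e-05, and -0.78 after GC adjustment), so that the difference between the siRNAs was -2.13 (adjusted p = 4.65e-09). TEAD3 showed the same order, at 14.0 ± 0.532 FPKM after Scramble, 19.8 ± 0.434 after Si-KDM4C#1 and 11.1 ± 0.246 after Si-KDM4C#2. Its log2 fold changes were 0.47 (adjusted p = 5.99e-06) and -0.32 (adjusted p = 0.000118), or 0.27 and -0.56 after GC adjustment. TEAD2 was at 8.69 ± 0.741, 8.02 ± 0.0255 and 9.35 ± 0.641 FPKM in the same order, and passed the test against Scramble with neither siRNA (adjusted p = 0.203 and 0.233), although it did after Si-KDM4C#1 without Scramble replicate 2 (adjusted p = 0.0454) and after GC adjustment (-0.27). TEAD2 and TEAD3 were named after their values were seen, to complete the family.

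Summed over the 4 TEAD genes, expression per length was 75.8 ± 1.96 FPKM after Scramble, 106.9 ± 0.871 after Si-KDM4C#1 and 65.1 ± 0.855 after Si-KDM4C#2 (SD, n = 3), and the 3 groups did not overlap. TEAD1 made up 53.4% ± 1.59 of the sum after Scramble, 36.1% ± 1.96 after Si-KDM4C#1 and 55.6% ± 0.773 after Si-KDM4C#2. TEAD4 made up 16.6% ± 0.552, 37.9% ± 1.75 and 13.0% ± 0.863 in the same order. With Si-KDM4C#1, TEAD4 was thus at the level of TEAD1, and no test of these sums was made.

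**Figure D3:**
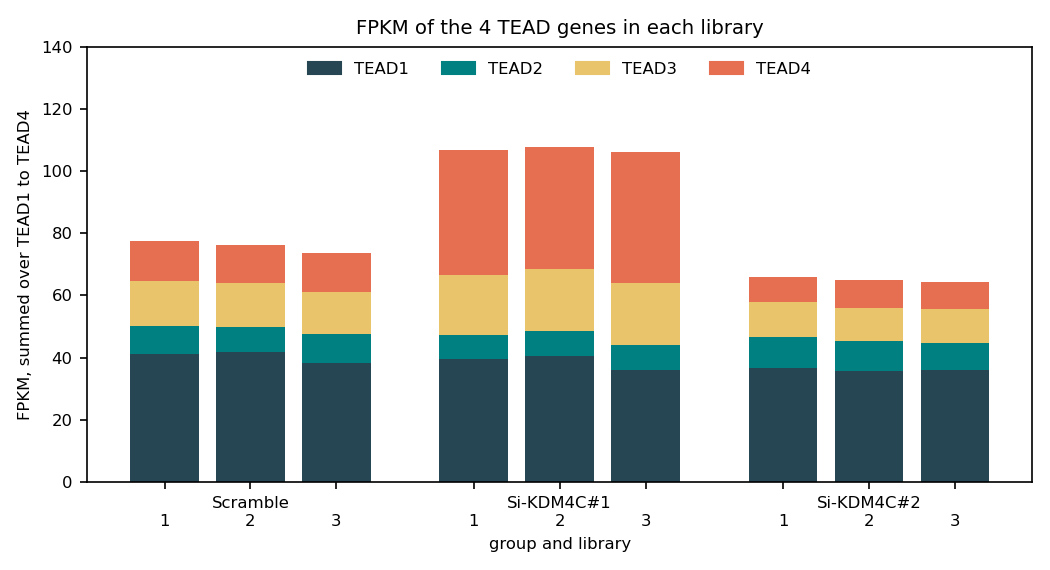
FPKM of TEAD1, TEAD2, TEAD3 and TEAD4 stacked for each of the 9 libraries (vertical axis from 0, libraries 1 to 3 of each group on the horizontal axis). The sum is highest in the 3 Si-KDM4C#1 libraries, between 106.2 and 107.9 FPKM, and most of the added height is TEAD4.

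Of the target genes, CYR61 had the widest difference. CYR61, also named CCN1, encodes a secreted matricellular protein. It was at 10.8, 8.81 and 10.5 FPKM after Scramble and at 65.6, 73.5 and 80.0 after Si-KDM4C#1, a ratio of mean FPKM of 7.28. With Si-KDM4C#2 it was at 12.8, 11.7 and 13.2 FPKM. All Si-KDM4C#1 libraries were above all others, and the Si-KDM4C#2 libraries lay just above the Scramble libraries. CYR61 was called higher after Si-KDM4C#1 (log2 fold change 2.75, SE 0.0877, adjusted p = 1.55e-08). With Si-KDM4C#2 the log2 fold change was 0.30 (adjusted p = 0.0147), and its adjusted p was 0.0504 without Scramble replicate 2 and 0.0512 without Si-KDM4C#2 replicate 3.

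CTGF, also named CCN2, encodes a related matricellular protein that promotes matrix deposition. It was low after Scramble, at 2.75, 2.61 and 2.30 FPKM, which rests on 97, 97 and 92 fragments. It was at 10.9, 12.7 and 14.8 FPKM after Si-KDM4C#1, from 460, 434 and 555 fragments, and at 3.12, 3.27 and 3.48 FPKM after Si-KDM4C#2. The groups did not overlap, but the Si-KDM4C#2 libraries were close to the Scramble libraries. CTGF was called higher after Si-KDM4C#1 (log2 fold change 1.95, SE 0.0978, adjusted p = 1.68e-07), a ratio of mean FPKM of 5.02.

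With Si-KDM4C#2 the log2 fold change of CTGF was 0.27 (adjusted p = 0.0353), and this result was not stable. Its adjusted p was 0.0639 without Scramble replicate 2, 0.113 without Scramble replicate 3, 0.0508 without Si-KDM4C#1 replicate 2, 0.0509 without Si-KDM4C#2 replicate 1, 0.0724 without Si-KDM4C#2 replicate 2 and 0.102 without Si-KDM4C#2 replicate 3. It was 0.0501 with the replicate block, 0.0905 with no filter on low genes, and 0.139 both after GC adjustment and in the voom fit. The difference between the siRNAs was -1.68 for CTGF (adjusted p = 5.44e-07) and -2.45 for CYR61 (adjusted p = 3.14e-08).

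ANKRD1, a nuclear ankyrin-repeat protein and a standard YAP target, was close to the detection limit. Its values were 0.0669, 0.191 and 0.0590 FPKM after Scramble, 0.224, 0.173 and 0.314 after Si-KDM4C#1 and 0.0326, 0.0649 and 0.0296 after Si-KDM4C#2, and the Scramble range overlapped that of either siRNA. These rest on 10, 23 and 4 fragments in all for the respective groups, so differences were hardly detectable at this depth. ANKRD1 stood under the filter on low genes and was tested in a fit over all 32906 genes. Its log2 fold change was 0.16 after Si-KDM4C#1 (adjusted p = 0.0781) and -0.083 after Si-KDM4C#2 (adjusted p = 0.405). Without Scramble replicate 2, the adjusted p after Si-KDM4C#1 was 0.0180, and it was 0.0182 after quantile normalization (0.26) and 0.0199 after GC adjustment (0.23). Between the siRNAs the difference was -0.25 (adjusted p = 0.0150), with adjusted p-values of 0.0510 without Si-KDM4C#2 replicate 1 and 0.0529 without Si-KDM4C#2 replicate 3. With a pseudocount of 0.1 this difference was -1.23 (adjusted p = 0.0225).

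The promoter sequences of these genes were read for the TEAD motif, since most of them are described as TEAD targets. RefSeq promoters of GRCh38.p14, 250 bases before to 50 after the transcription start, were found for 8 of the 10 genes, CYR61 and TEAD1 being the others, and some genes had more than 1, giving 12 promoters. The motif searched was GGAATG on both strands, and 7 of the 12 promoters, belonging to 7 genes, held it. Of all 35116 promoters in the table, 14.0% held the motif, 1.37% held 2 or more and 0.128% held 3 or more. CTGF held 3 matches, with first bases at -169, -104 and -95 from the start, and ANKRD1 held 2, at -220 and -128. The AP-1 motif TGANTCA was found in ANKRD1 alone among the 12, at -195, and in 7.71% of all promoters. A match is a run of letters and was not tested for binding.

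The sequence before the CTGF start, on the minus strand of chr6:131951374-131951622, is shown whole because of its 3 matches, in capitals.
CTGF: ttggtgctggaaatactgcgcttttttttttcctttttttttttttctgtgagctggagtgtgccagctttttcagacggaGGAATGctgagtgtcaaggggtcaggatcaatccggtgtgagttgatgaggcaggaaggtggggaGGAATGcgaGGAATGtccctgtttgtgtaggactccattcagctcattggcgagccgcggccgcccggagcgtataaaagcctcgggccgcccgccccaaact

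The matches in the other genes are shown with 12 bases on either side, 5′ to 3′ in the direction of the gene and with the motif in capitals, so that genes with different responses can be compared.
ANKRD1, chr10:90921290-90921319, at -220: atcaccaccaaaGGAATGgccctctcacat
ANKRD1, chr10:90921198-90921227, at -128: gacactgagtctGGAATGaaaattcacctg
AMOTL2, chr3:134374499-134374528, at -69: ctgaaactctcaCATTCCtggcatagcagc
AJUBA, chr14:22976884-22976913, at -59: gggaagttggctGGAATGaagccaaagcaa
YAP1, chr11:102110273-102110302, at -162: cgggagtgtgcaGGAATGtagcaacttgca
LATS2, chr13:21061560-21061589, at 10: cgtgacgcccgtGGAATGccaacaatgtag
AXL, chr19:41226531-41226560, at -212: cagactttgcacCATTCCactccctccgct

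AMOTL2 and AXL hold the motif on the opposite strand, which reads CATTCC. The motif was thus present in genes that rose after Si-KDM4C#1 (CTGF, AMOTL2, AJUBA), in AXL, which fell, and in YAP1 and LATS2, which did not pass the test with that siRNA in the fit of log2(FPKM + 1), although YAP1 did after GC adjustment and in the voom fit. Both WWTR1 promoters, the second AMOTL2 and AJUBA promoters and the first AXL promoter held none. Promoters are numbered by position on the chromosome, so these AMOTL2, AJUBA and AXL promoters are the ones nearest the annotated 5′ end. The matches in AMOTL2, AJUBA and AXL lie at starts further inside the gene, and which start was used was not tested.

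**Figure D4:**
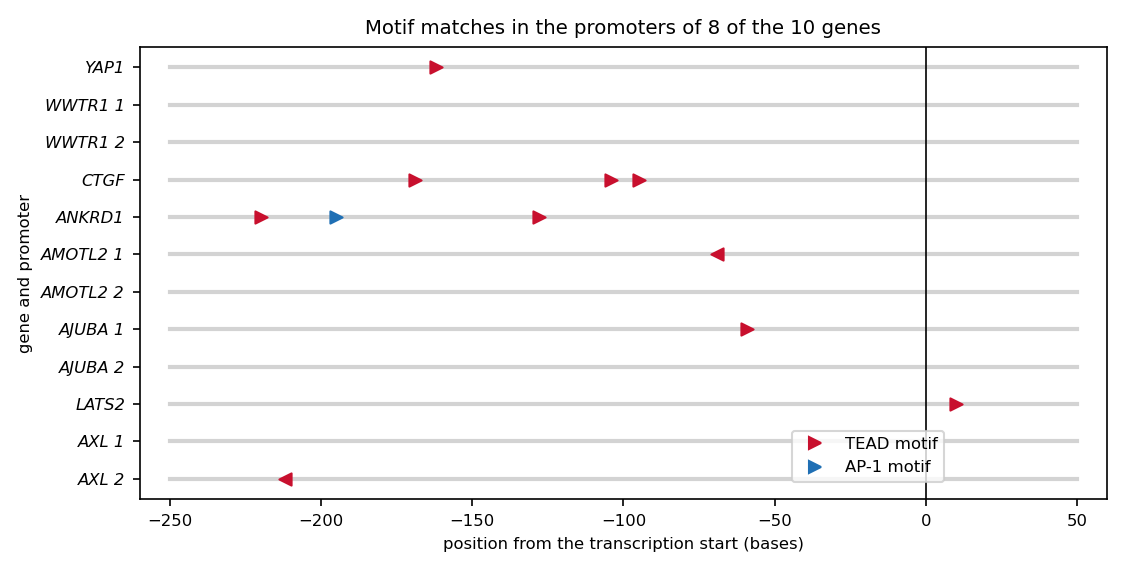
First bases of the TEAD motif (red) and the AP-1 motif (blue) in 12 RefSeq promoters of 8 genes, against the position from the transcription start in bases. Arrowheads give the strand, grey lines the 250 bases before and 50 after the start; CTGF holds 3 matches of the TEAD motif and ANKRD1 holds 2.

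AMOTL2 and AJUBA encode proteins that act on the pathway from the cell junctions. AMOTL2, an angiomotin that binds YAP1 and helps to hold it outside the nucleus, was at 16.0, 14.7 and 14.8 FPKM after Scramble. It was at 25.1, 26.1 and 25.4 FPKM after Si-KDM4C#1 and at 9.90, 8.90 and 10.3 after Si-KDM4C#2. The 3 groups did not overlap, and the siRNAs stood on opposite sides of Scramble. AMOTL2 rose by 0.72 on the log2 scale after Si-KDM4C#1 (SE 0.0565, adjusted p = 2.92e-06) and fell by 0.60 after Si-KDM4C#2 (adjusted p = 1.57e-05). In the limma fit it was the only one of the 9 tested genes that passed the test in opposite directions with the siRNAs. YAP1 did so too after GC adjustment and in the voom fit. AJUBA did so after quantile normalization, after GC adjustment and in the voom fit. The direct difference of AMOTL2 between the siRNAs, -1.31, was called (adjusted p = 9.17e-08).

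AJUBA, a LIM protein that binds and restrains LATS kinases, was at 13.0, 13.0 and 11.5 FPKM after Scramble, 26.4, 27.5 and 26.9 after Si-KDM4C#1 and 11.6, 11.7 and 11.2 after Si-KDM4C#2. All Si-KDM4C#1 libraries were above the rest, while the Si-KDM4C#2 and Scramble libraries overlapped. AJUBA was called higher after Si-KDM4C#1 (log2 fold change 1.05, SE 0.0506, adjusted p = 1.31e-07). It lay close to the 2-fold limit, at a log2 fold change of 0.997 without Scramble replicate 3, 0.93 after quantile normalization and 0.98 after GC adjustment, and it was not called in these fits. With Si-KDM4C#2 the log2 fold change was -0.11 (interval -0.22 to 0.0067, adjusted p = 0.0951), and its adjusted p was 0.0103 without Scramble replicate 3. It also passed the test after quantile normalization (-0.21, adjusted p = 0.00426), after GC adjustment (-0.23, adjusted p = 0.00236) and in the voom fit (-0.18, adjusted p = 0.0135). The difference between the siRNAs was -1.16 (adjusted p = 1.02e-07).

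LATS2, the kinase that phosphorylates YAP1 and TAZ and is itself a YAP target, followed another pattern. It was at 8.40, 8.49 and 8.00 FPKM after Scramble, 8.60, 7.61 and 8.55 after Si-KDM4C#1 and 15.0, 13.7 and 14.6 after Si-KDM4C#2. Only the Si-KDM4C#2 libraries stood apart, above all others. LATS2 rose by 0.73 on the log2 scale after Si-KDM4C#2 (SE 0.0565, adjusted p = 4.17e-06), in the group in which YAP1, WWTR1 and AMOTL2 fell. With Si-KDM4C#1 its log2 fold change was -0.0081 (interval -0.14 to 0.12, adjusted p = 0.909). The difference between the siRNAs was 0.74 (adjusted p = 2.98e-06).

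AXL, a receptor tyrosine kinase and YAP target linked to invasion and drug resistance, fell with the siRNA with which CTGF and CYR61 rose most. It was at 25.7, 23.2 and 22.9 FPKM after Scramble, 12.3, 13.6 and 12.7 after Si-KDM4C#1 and 25.7, 25.4 and 24.0 after Si-KDM4C#2. The Si-KDM4C#1 libraries were below all others, which overlapped. AXL fell by 0.84 on the log2 scale after Si-KDM4C#1 (SE 0.0552, adjusted p = 8.30e-07), short of the 2-fold limit. With Si-KDM4C#2 its log2 fold change was 0.064 (interval -0.060 to 0.19, adjusted p = 0.344), and it was -0.076 after quantile normalization and -0.073 after GC adjustment. The difference between the siRNAs was 0.91 (adjusted p = 7.13e-07).

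The order of the levels, which FPKM gives per length, changed with the siRNA. With Scramble it was YAP1 (106.8), TEAD1 (40.5), AXL (23.9), AMOTL2 (15.2), AJUBA (12.5), WWTR1 (10.6), CYR61 (10.0), LATS2 (8.30), CTGF (2.55) and ANKRD1 (0.106 FPKM). Of these neighbours, WWTR1 and CYR61 did not differ beyond the spread of their libraries. With Si-KDM4C#1, CYR61 stood next to YAP1 at 73.0 FPKM, and CTGF (12.8 FPKM) overlapped AXL (12.9 FPKM). With Si-KDM4C#2, LATS2 (14.4 FPKM) stood next below AXL and above CYR61 (12.6 FPKM), AJUBA (11.5 FPKM) and AMOTL2 (9.70 FPKM), and no neighbours overlapped.

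Counted over the 9 genes that passed the filter on low values, 3 (33.3%) were called higher after Si-KDM4C#1, against 4.04% of all tested genes. They were CTGF, CYR61 and AJUBA. The number was 2 without Scramble replicate 3, after quantile normalization and after GC adjustment, AJUBA being lost each time. None was called lower in the limma fit, against 4.83% of all tested genes, although 2 were lower at an unadjusted p under 0.05, and the voom fit called 0. At an adjusted p alone, 4 rose, against a background of 31.7%, and 2 fell, against 33.9%. The members and the lists below were chosen with earlier results of these data known. The shares here and below are thus no independent test of either.

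With Si-KDM4C#2 the limma fit called 0 of the 9 higher and 0 lower, against 2.6% and 2.3% of all tested genes. At an unadjusted p under 0.05, 3 were higher and 4 lower, and the voom fit called 0 higher and 1 lower, WWTR1. At an adjusted p alone, 3 rose against a background of 34.4% and 4 fell against 25.0%. The share that rose, 33.3%, was near its background, and the share that fell was 44.4%.

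Between the siRNAs, 4 of the 9 (44.4%) were called lower after Si-KDM4C#2 than after Si-KDM4C#1, against 2.49% of all tested genes. None was called higher by limma, against 4.41%, while 2 were higher at an unadjusted p under 0.05 and the voom fit called 0. At an adjusted p alone 2 were higher, against 35.9%, and 6 lower, against 26.5%. The median log2 fold change of the 9 genes was 0.045 after Si-KDM4C#1, -0.11 after Si-KDM4C#2 and -0.73 between the siRNAs, beside medians of -0.032, 0.057 and 0.082 over all tested genes. Libraries did not overlap between the groups for 6, 7 and 8 of the 9 genes in the 3 comparisons, and for 69.4%, 65.3% and 69.3% of all tested genes.

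The wider pathway was described over 64 tested genes of 71 in lists of related roles. With Si-KDM4C#1, 5 (7.81%) were called higher and 2 (3.12%) lower, against 4.04% and 4.83% of all tested genes. With Si-KDM4C#2, 2 (3.12%) were called in each direction, against 2.6% higher and 2.3% lower. Between the siRNAs 4 (6.25%) were called in each direction, against 4.41% and 2.49%. At an adjusted p alone, 23 (35.9%) rose and 23 fell after Si-KDM4C#1, near the backgrounds of 31.7% and 33.9%. With Si-KDM4C#2, 23 (35.9%) rose, near the 34.4% of all tested genes, and 24 (37.5%) fell, against 25.0%. The shares given below for single lists are to be read against these same 4 backgrounds for an adjusted p alone. The medians of these 64 genes were -0.018 after Si-KDM4C#1 and 0.00091 after Si-KDM4C#2, beside -0.032 and 0.057 over all tested genes.

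Of 5 other TEAD and VGLL factors tested, 2 rose (40%, background 31.7%) and 1 fell (20%, background 33.9%) after Si-KDM4C#1. With Si-KDM4C#2, 2 rose (40%, background 34.4%) and 2 fell (40%, background 25.0%). VGLL proteins bind TEADs in place of YAP1. VGLL4, which represses TEAD targets, was at 4.42 ± 0.407 FPKM after Scramble, 4.38 ± 0.166 after Si-KDM4C#1 and 9.96 ± 0.0715 after Si-KDM4C#2. It was called higher after Si-KDM4C#2 (log2 fold change 1.02, adjusted p = 7.38e-07), close to the limit. The value was 0.99 without Scramble replicate 2, 0.98 without Scramble replicate 3, 0.99 after quantile normalization and 0.92 after GC adjustment, and the gene was then not called. VGLL3, named after its values were seen, was at 13.6 ± 1.37, 9.36 ± 0.707 and 27.0 ± 0.949 FPKM in the same order and was called higher after Si-KDM4C#2 than after Si-KDM4C#1 (difference 1.44, adjusted p = 2.71e-07).

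Within the kinase cassette of 10 tested genes, TAOK1, which activates the kinases above LATS, was called lower after Si-KDM4C#1, from 17.0 ± 0.556 to 7.28 ± 0.720 FPKM (log2 fold change -1.12, adjusted p = 4.88e-07). After GC adjustment its value was -0.88. TAOK1 also fell after Si-KDM4C#2, by less, at -0.56 to -0.49 when 1 library was left out. At an adjusted p alone, 2 of the 10 rose (20%, against 31.7% of all tested genes) and 4 fell (40%, against 33.9%) after Si-KDM4C#1. For Si-KDM4C#2 these numbers were 2 (20%, against 34.4%) and 5 (50%, against 25.0%).

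Of 12 tested upstream regulators, 7 rose (58.3%, background 31.7%) and 2 fell (16.7%, background 33.9%) after Si-KDM4C#1. With Si-KDM4C#2, 4 rose (33.3%, background 34.4%) and 4 fell (33.3%, background 25.0%). The scaffold WWC1, or KIBRA, was called higher after Si-KDM4C#1, from 4.32 ± 0.240 to 12.7 ± 0.251 FPKM (log2 fold change 1.36, adjusted p = 2.85e-08). Its paralog WWC2 was called lower, from 7.79 ± 0.148 to 2.43 ± 0.0407 FPKM (log2 fold change -1.36, adjusted p = 2.70e-08). The polarity protein SCRIB was called higher, from 24.6 ± 2.40 to 68.0 ± 2.26 FPKM (log2 fold change 1.43, adjusted p = 1.06e-07), and its value after Si-KDM4C#2 was 0.90 (adjusted p = 3.26e-06), or 0.49 after GC adjustment. WWC1 and WWC2 also kept their directions after Si-KDM4C#2 and passed the test. Leaving out 1 library gave 0.63 to 0.69 for WWC1 and -0.37 to -0.32 for WWC2 with that siRNA. Between the siRNAs, WWC2 was called higher after Si-KDM4C#2 at a difference of 1.01, and FRMD6 and PTPN14, named after their values were seen, lower at -1.07 and -1.12. The WWC2 difference was 0.997 without Si-KDM4C#1 replicate 3, 0.99 without either Si-KDM4C#2 replicate 2 or 3, 0.87 after quantile normalization and 0.90 after GC adjustment, and was then not called. The FRMD6 difference was -1.84 with a pseudocount of 0.1 and -2.13 in the voom fit. PTPN14 stands in this list and in the target signature below.

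AMOTL1, the paralog of AMOTL2, rose with both siRNAs, and of the 3 tested angiomotins and LIM proteins 2 rose (66.7%) and 1 fell (33.3%) with each, where backgrounds were 31.7% and 34.4% for rises and 33.9% and 25.0% for falls. AMOTL1 was at 3.48 ± 0.259 FPKM after Scramble, 8.02 ± 0.492 after Si-KDM4C#1 and 7.14 ± 0.287 after Si-KDM4C#2. It was called after Si-KDM4C#1 (log2 fold change 1.01, adjusted p = 5.50e-07) and not after Si-KDM4C#2 (0.86, adjusted p = 2.60e-06), where it was called with a pseudocount of 0.1 (1.02). The first was no longer called without Scramble replicate 1 (0.99), Scramble replicate 3 (0.98), Si-KDM4C#1 replicate 1 (0.99) or Si-KDM4C#1 replicate 2 (0.99). AMOTL2 and AMOTL1 thus differed in direction after Si-KDM4C#2, each against the same Scramble libraries.

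The STRIPAK complex is a phosphatase assembly that turns off the Hippo kinases. With Si-KDM4C#1, 9 of its 10 tested genes (90%) fell, against 33.9% of all tested genes. After Si-KDM4C#2, 7 (70%) fell, against 25.0%, and 2 (20%) rose, against 34.4%. Most of these falls were small, with a median log2 fold change of -0.22 after Si-KDM4C#1 and -0.27 after Si-KDM4C#2. The counts at an adjusted p alone were not repeated after GC adjustment or under the other normalizations. STRN3, a scaffold of the complex, was called lower after Si-KDM4C#2, from 10.2 ± 0.378 to 3.78 ± 0.250 FPKM (log2 fold change -1.23, adjusted p = 9.33e-07). MOB4, another subunit, was called lower too, from 5.05 ± 0.464 to 1.54 ± 0.368 FPKM (log2 fold change -1.26, adjusted p = 8.67e-06). Both also fell after Si-KDM4C#1. Leaving out 1 library gave -0.85 to -0.72 for STRN3 and -0.91 to -0.81 for MOB4 with that siRNA. MOB4 was called there with a pseudocount of 0.1 (-1.09) and in the voom fit (-1.05). Over all alternatives that kept every library, the values with Si-KDM4C#1 ranged from -1.09 to -0.58 for MOB4 and from -0.90 to -0.58 for STRN3.

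Of 11 tested genes that degrade or retain YAP1, 5 rose (45.5%, background 31.7%) and 3 fell (27.3%, background 33.9%) after Si-KDM4C#1. With Si-KDM4C#2, 6 rose (54.5%, background 34.4%) and 2 fell (18.2%, background 25.0%). They include the 14-3-3 proteins, of which YWHAE and YWHAQ had the highest mean FPKM over the 9 libraries. SFN, another 14-3-3 protein named after its values were seen, was above both after Si-KDM4C#1, at 178.2 ± 6.58 FPKM. YWHAE was at 189.2 ± 10.3 FPKM after Scramble, 108.8 ± 6.13 after Si-KDM4C#1 and 243.0 ± 4.93 after Si-KDM4C#2. It fell by 0.79 after Si-KDM4C#1 (adjusted p = 7.49e-07) and rose by 0.36 after Si-KDM4C#2 (adjusted p = 0.000216). The log2 fold change of YWHAQ was 0.0074 after Si-KDM4C#1 (adjusted p = 0.870) and 0.090 after Si-KDM4C#2 (adjusted p = 0.0567). The first passed the test in opposite directions after quantile normalization (-0.16, adjusted p = 0.0015) and after GC adjustment (0.15, adjusted p = 0.00598). The adjusted p of the second was 0.0139 after GC adjustment, 0.0429 with the replicate block and 0.0480 without Si-KDM4C#2 replicate 1.

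The remaining 14 tested genes of a YAP/TAZ target signature moved both ways. With Si-KDM4C#1, 6 rose (42.9%, background 31.7%) and 3 fell (21.4%, background 33.9%). With Si-KDM4C#2, 5 rose (35.7%, background 34.4%) and 4 fell (28.6%, background 25.0%), both near the background. GADD45A, a stress-induced growth arrest gene that p53 and ATF4 also control, was called higher after Si-KDM4C#1, from 13.2 ± 1.43 to 36.1 ± 2.74 FPKM (log2 fold change 1.39, adjusted p = 6.82e-07). Its value after Si-KDM4C#2 was 0.057 (adjusted p = 0.595), and it was -0.041 after quantile normalization. FJX1 was called higher after Si-KDM4C#2, from 6.70 ± 1.26 to 17.4 ± 0.827 FPKM (log2 fold change 1.27, adjusted p = 5.05e-06), and its value was 0.93 after GC adjustment. FJX1 also rose after Si-KDM4C#1, by 0.62, or by 0.34 after GC adjustment.

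**Figure D5:**
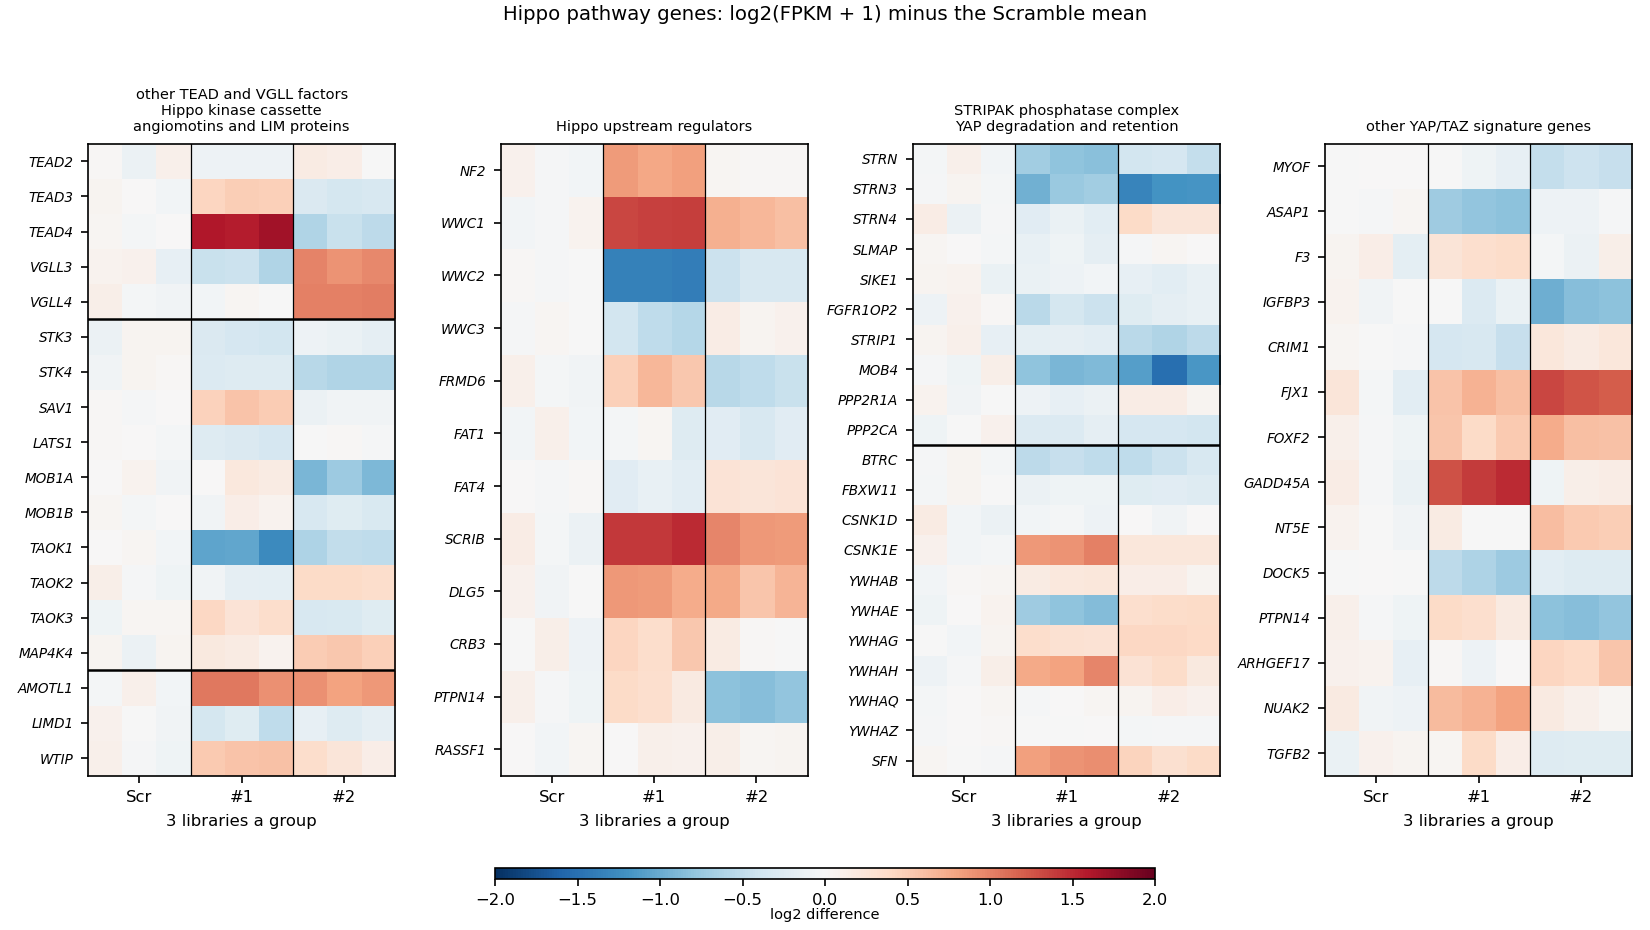
Difference of log2(FPKM + 1) from the Scramble mean (colour, -2 blue to 2 red) for the tested genes of the pathway lists, in the 3 libraries of each group. TEAD4, WWC1, SCRIB and GADD45A are red after Si-KDM4C#1, WWC2 and TAOK1 blue, and VGLL3, VGLL4 and FJX1 red after Si-KDM4C#2.

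The genes nearest to CTGF, CYR61 and LATS2 were found by the root mean square difference of log2(FPKM + 1), taken from the Scramble mean, over the 9 libraries and 11906 other genes. Nearest to CTGF were ATF3 (0.127), DLK2 (0.152) and NR4A1 (0.157). ATF3, a stress-induced transcription factor, was at 3.72 ± 0.0268, 17.3 ± 1.58 and 4.17 ± 0.212 FPKM after Scramble, Si-KDM4C#1 and Si-KDM4C#2, and NR4A1, an immediate early nuclear receptor, at 3.45 ± 0.421, 14.1 ± 1.14 and 4.83 ± 0.140 FPKM. DLK2 was at 2.39 ± 0.457, 11.5 ± 0.415 and 3.50 ± 0.514 FPKM in the same order. Nearest to CYR61 were BBC3 (0.219), MMP24 (0.298) and GANAB (0.434). BBC3, a p53-induced promoter of apoptosis, was at 2.71 ± 0.563, 19.7 ± 1.73 and 3.35 ± 0.0718 FPKM. MMP24 was at 1.25 ± 0.239, 11.1 ± 0.309 and 1.23 ± 0.0133 FPKM, and GANAB at 29.2 ± 2.04, 129.1 ± 2.68 and 46.4 ± 3.36 FPKM. Nearest to LATS2 were SSH3 (0.0543), ELOA (0.0636) and ARHGAP33 (0.0657), and SSH3, a cofilin phosphatase, was at 7.98 ± 0.471, 7.94 ± 0.291 and 13.7 ± 0.309 FPKM. This likeness is a description over 9 libraries in 3 groups.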

How the data were processed

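Per the labels and the study's methods, total RNA was made into libraries with a kit without stated strand marking. The submitters' processing notes name FastQC 0.11.5, HISAT2 2.1.0, featureCounts, StringTie 1.3.3b, DESeq 1.28.0 and GRCh38. A list of FPKM for every library was deposited by the authors, and no scaling between libraries is given in the sources used here. Strand was not stated, so opposite-strand genes that share 9.97% of the exon bases of YAP1, 9.45% of WWTR1, 8.34% of CTGF and 1.30% of AXL cannot be told apart from them. Same-strand genes share 3.12% of the exon bases of AMOTL2 and 0.836% of AJUBA.

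Log2(FPKM + 1) of all 9 libraries was fitted with limma 3.58.1 (R 4.3.3, trend), with Benjamini-Hochberg adjustment over the 14363 genes whose mean reached 1 FPKM in any group. Calls needed an FDR under 0.05 and a fold change over 2. ANKRD1 was taken from the fit over all 32906 genes. Fragments were recovered with exon lengths of GENCODE 29, and 97.5% to 97.7% of non-zero values came out whole within 0.05 fragments. Counting error alone is covered by these fragments. The 3 libraries of a group differed by more than counting error (chi-square over its degrees of freedom, 2.56 to 5.75). The fit was tested on simulated data with planted changes well above the 2-fold limit, so calls near that limit were not probed.

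The members and lists were chosen with earlier results of these data known. Named, beside genes said to be chosen after their values were seen, were the 10 members, KDM4C, up to 4 genes per list called with either siRNA by size of change (or the 2 most abundant where none was), and the 3 nearest profiles (genes with every group mean at 1 FPKM or more) of CTGF, CYR61 and LATS2. Alternatives were a pseudocount of 0.1, other filters, quantile normalization, lowess adjustment for GC content, voom on recovered fragments, separate fits of 6 libraries, a replicate block, other thresholds and leaving out each library. Promoters were RefSeq sequences of GRCh38.p14.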

Additional observations from a re-analysis of the deposited data

Results flagged for a closer look

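Expression differed between the siRNAs, by the direct limma comparison of Si-KDM4C#2 with Si-KDM4C#1 at more than a 2-fold change, for 4 of the 10 genes. Of the 9 genes tested, 44.4% were thus called lower after Si-KDM4C#2, against 2.49% of all tested genes, and 0 higher, against 4.41%. The members were chosen with earlier results of these data known, so these shares are no independent test of the set. The log2 difference was -1.68 for CTGF, -2.45 for CYR61, -1.31 for AMOTL2 and -1.16 for AJUBA. In each gene the 3 Si-KDM4C#1 libraries were above the 3 Si-KDM4C#2 libraries, and the adjusted p-values were 5.44e-07, 3.14e-08, 9.17e-08 and 1.02e-07. KDM4C itself was at 1.14 ± 0.0395 FPKM with Si-KDM4C#1 and 0.287 ± 0.0535 with Si-KDM4C#2 (SD, n = 3). Its part in these differences was not tested. Single libraries were not screened for outlying values, since each group held 3.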

How the results depend on the processing

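Of 30 log2 fold changes of the 10 genes, 19 kept their direction and their side of the adjusted p limit under every alternative. So did 516 of 561 single values. The limit was 0.05, or 0.01 in the alternative with a stricter FDR. Dropping the fold limit changes neither a log2 fold change nor its adjusted p. The values of that alternative were thus the same by construction, and the 516 include them. The causes of the changes in the other values were not tested. With no fold limit, 2 of the 9 tested genes (22.2%) counted as lower for Si-KDM4C#1. For Si-KDM4C#2, 3 (33.3%) counted as higher and 4 (44.4%) as lower, and between the siRNAs 2 (22.2%) as higher. The 64 pathway genes counted 23 (35.9%) higher and 23 (35.9%) lower, 23 (35.9%) and 24 (37.5%), and 23 (35.9%) and 27 (42.2%) in the 3 comparisons. Of all tested genes, the shares were 31.7% and 33.9%, 34.4% and 25.0%, and 35.9% and 26.5%. One gene, WWTR1, was called lower with Si-KDM4C#2 with a pseudocount of 0.1, after quantile normalization and with voom. Voom called 8 pathway genes higher and 4 lower for Si-KDM4C#1 and 7 lower between the siRNAs. After quantile normalization 1 pathway gene was higher with Si-KDM4C#2 and 2 between the siRNAs. After GC adjustment 1 was lower with Si-KDM4C#1, 1 higher with Si-KDM4C#2 and 2 higher between the siRNAs. The shares of all genes called in the voom, quantile and GC fits were not counted, so these counts have no background.

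Quantile normalization gave log2 fold changes with Si-KDM4C#1 of -0.14 for YAP1, -0.24 for TEAD1, 0.26 for ANKRD1, 0.079 for VGLL4 and -0.16 for YWHAQ, and with Si-KDM4C#2 of -0.21 for AJUBA, -0.076 for AXL and -0.041 for GADD45A. GC adjustment gave 0.19 for YAP1, 0.13 for TEAD1 and 0.23 for ANKRD1 with Si-KDM4C#1. With Si-KDM4C#2 it gave -0.084 for TEAD1, 0.18 for CTGF, -0.23 for AJUBA, -0.073 for AXL, -0.032 for GADD45A and -0.12 for TEAD2, and between the siRNAs -0.22 for TEAD1 and -0.019 for YWHAQ. Voom gave 0.11 for YAP1, 0.060 for LATS2 and 0.053 for VGLL4 with Si-KDM4C#1, 0.31 for CTGF and -0.18 for AJUBA with Si-KDM4C#2, and -0.22 for TEAD1 and -0.045 for YWHAQ between the siRNAs. Of these, YAP1 after GC adjustment and with voom, TEAD1, ANKRD1 and YWHAQ with Si-KDM4C#1, AJUBA with Si-KDM4C#2 and TEAD1 between the siRNAs passed the test, and the others did not. With no filter on low genes, TEAD1 (-0.16) and CTGF (0.27) with Si-KDM4C#2 lost the test.

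At an FDR under 0.01, TEAD1 (-0.16), CTGF (0.27) and CYR61 (0.30) with Si-KDM4C#2 and ANKRD1 (-0.25) between the siRNAs lost it. With the replicate block, CTGF with Si-KDM4C#2 (0.27) lost it, and no other call of the 10 genes changed. Deviations of same-numbered libraries correlated at -0.046 to 0.055 over 9 pairs, beside -0.053 to 0.064 over 18 pairs with different numbers. These ranges overlap, which cannot show whether the libraries were paired.

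Leaving out 1 library gave 1 to 2 pathway genes higher with Si-KDM4C#2. It gave log2 fold changes of -0.017 to 0.077 for YAP1, 0.12 to 0.22 for ANKRD1, -0.035 to 0.043 for LATS2, -0.047 to 0.052 for VGLL4 and -0.014 to 0.024 for YWHAQ with Si-KDM4C#1. With Si-KDM4C#2 it gave -0.20 to -0.13 for TEAD1, 0.22 to 0.31 for CTGF, 0.22 to 0.35 for CYR61, -0.16 to -0.080 for AJUBA and -0.0097 to 0.13 for GADD45A. Between the siRNAs it gave -0.14 to -0.056 for TEAD1 and -0.28 to -0.20 for ANKRD1. Genes listed at 0 or resting on a few fragments, such as ANKRD1, are limited by depth.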
